A study of Mus musculus with 37 samples.

Results

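Single macrophages from obese mouse fat were divided by how much Fos mRNA they held, and 17 Fos-high cells were described against 18 Fos-low cells. The sides were chosen by the measured Fos value itself: a cell was Fos-high at 200 FPKM or more and Fos-low below 200 FPKM. FPKM is a level in fragments, scaled to the transcript's length and to the fragments mapped in the cell. The series held 37 cells in all, and cells 7 and 27 were kept out because they carried fibroblast genes, which left 35. Cells are named here by the number in their labels, from 0 to 36.

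All cells came from the epididymal white fat of male, age-matched C57BL/6J mice fed a purified high-fat diet, with 60% of its energy from fat, 20% from carbohydrate and 20% from protein. The minced fat was digested with collagenase D or collagenase IV for 30 min, the stromal fraction was sorted, and a Fluidigm C1 instrument trapped each cell in its own microfluidic chamber. Both sides therefore shared strain, sex, diet, tissue and the 30 min length of digestion. The labels do not say which collagenase freed which cell, and no undigested cell was compared. Neither the ages of the mice nor the sort gate is given in the sources used here. The labels name no animal for any cell, so the cells formed 1 sample, and they give neither a p-value nor a standard error: cells are not replicates, and every value below is a description of these cells.

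Fos is the best known of the immediate early genes, which are transcribed within minutes of a stimulus without new protein synthesis, because the factors that switch them on are already present and need only be phosphorylated. Fos and Jun family proteins pair to form the AP-1 transcription factor. The same stimulus also switches on genes that shut the response down again, among them phosphatases of MAP kinases, binding proteins that destabilise mRNA, and inhibitors of NF-kB, and in macrophages these genes also follow inflammatory signals and the warm enzymatic digestion used to free cells from tissue.

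The proximal promoters of the 4 genes that gave the comparison its label, Fos, Junb, Dusp1 and Zfp36, are shown for sequence letters through which such stimuli can act. Each line gives the 150 bases before the RefSeq transcription start, 5′ to 3′ on the gene's strand, from RefSeq on GRCm38.p6. Capitals mark TGACG on either strand, the core of the cAMP response element, or a CArG box, the element of serum response factor. The windows lay at chr12:85473740-85473889 on the plus strand for Fos and, on the minus strand, at chr8:84978749-84978898 for Junb, chr17:26508473-26508622 for Dusp1 and chr7:28379229-28379378 for Zfp36.
Fos: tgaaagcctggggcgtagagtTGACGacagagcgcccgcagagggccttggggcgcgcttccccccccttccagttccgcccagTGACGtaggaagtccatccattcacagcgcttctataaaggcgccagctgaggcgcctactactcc
Junb: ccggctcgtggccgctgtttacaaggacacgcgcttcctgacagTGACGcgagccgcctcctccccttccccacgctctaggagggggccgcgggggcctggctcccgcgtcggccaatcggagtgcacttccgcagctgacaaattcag
Dusp1: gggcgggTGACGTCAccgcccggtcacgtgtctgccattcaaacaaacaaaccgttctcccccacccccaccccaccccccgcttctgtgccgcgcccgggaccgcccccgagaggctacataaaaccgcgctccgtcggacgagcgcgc
Zfp36: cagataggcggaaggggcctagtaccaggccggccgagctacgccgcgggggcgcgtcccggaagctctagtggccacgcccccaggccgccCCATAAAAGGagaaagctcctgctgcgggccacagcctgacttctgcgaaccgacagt

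In these windows TGACG was found 2 times in Fos and 1 time in Junb. In Dusp1 it stood on both strands in 1 overlapping palindrome, and Zfp36 held a CArG box and no TGACG. Of all 32851 RefSeq mouse promoters cut to the same length, 13.3% held TGACG and 0.916% held a CArG box. Of 57 promoters belonging to 41 genes of the immediate early and feedback lists described below, 40.4% held TGACG and 10.5% held a CArG box. Some of these promoters are alternative starts of 1 gene, 5 of them of Egr2: counted by gene, 17 of the 41 had a promoter with TGACG and 3 (Dusp5, Egr2 and Zfp36) one with a CArG box. Only the 150 bases before each start were searched, so a window without a match does not mean that the gene lacks the element farther away. Egr1 and Nfkbiz were among the list genes with no promoter in this set. A match describes letters in a window and says nothing about a factor bound there in these cells.

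Fos ranged from 267 to 12042 FPKM in the Fos-high cells, with a median of 734 FPKM. In the Fos-low cells it ranged from 0.98 to 199.8 FPKM, with a median of 51.0 FPKM. Every cell held at least a trace of Fos, and the values ran on across the cutoff: the cells just inside were cell 30 at 267 FPKM and cell 16 at 296 FPKM, and the cells just outside were cell 6 at 199.8 FPKM and cell 35 at 164 FPKM. The highest value, 12042 FPKM, was in cell 26. Since Fos chose the sides, its own difference is a description only.

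Differences are given as the mean log2(FPKM + 1) of the Fos-high cells minus that of the Fos-low cells. On this scale a difference of 2 is a 4-fold ratio of geometric means, and the added 1 shrinks the differences of genes at low levels. A gene counted as detected where it reached 1 FPKM, as measured when at least 5 cells reached that level, and as called at a difference of 2 or more, or -2 or less. Of 4368 measured genes other than Fos, 30 were called higher in Fos-high cells (0.687%) and 104 lower (2.38%). The median difference over all of them was -0.21. After each cell was scaled to the same FPKM sum the calls were 39 higher and 78 lower, with a median of -0.16. When the number of genes detected was added as a covariate they were 74 higher and 61 lower, with a median of 0.02. The calls depended on where Fos was divided: at a cutoff of 100 FPKM 15 of the 30 higher and 26 of the 104 lower calls were still made, and at 400 FPKM 16 and 49. No gene other than Fos had ranges that did not overlap between the sides. A gene could count as measured through the side where it was high alone, so the calls and list counts are descriptions.

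Depth differed little at the medians but much between cells. Fos-high cells had 1224 to 2536 genes detected (median 1691), and Fos-low cells had 1254 to 2769 (median 2074). The deposited values do not give fragments per cell. A stand-in for depth, the FPKM value of 1 fragment relative to the other cells, had medians of 0.919 in Fos-high and 1.01 in Fos-low cells. It exceeded 4 times the median in 5 shallow cells, namely cells 15 and 26 of the Fos-high side and cells 2, 17 and 24 of the Fos-low side. Cells 0 to 19 held 7 Fos-high and 12 Fos-low cells, and cells 20 to 36 held 10 and 6. These number ranges are putative library parts, not a batch given by the labels.

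The other 3 label genes followed Fos to very different degrees. Zfp36 encodes tristetraprolin, which binds AU-rich elements of cytokine mRNAs and speeds their decay. It ranged from 0.751 to 6101 FPKM in Fos-high cells (median 424) and from 1.33 to 583 FPKM in Fos-low cells (median 60.0), a difference of 2.30. Zfp36 was above the Fos-low median in 15 of 17 Fos-high cells, while the ranges overlapped widely: cell 12, a Fos-high cell, had the lowest value of all, and Fos-low cells reached 583 FPKM.

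Dusp1 encodes a dual-specificity phosphatase that switches off p38 and JNK MAP kinases. It ranged from 2.13 to 1918 FPKM in Fos-high cells (median 784) and from 0.953 to 5608 FPKM in Fos-low cells (median 256), a difference of 1.25, under the size needed for a call. Only 3 of 18 Fos-low cells lay above the Fos-high median, but the highest Dusp1 value of all was in a Fos-low cell, cell 2.

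Junb encodes a Jun family partner of Fos in AP-1. It ranged from 1.54 to 1106 FPKM in Fos-high cells (median 167) and from 0.935 to 8348 FPKM in Fos-low cells (median 37.6), a difference of 0.39. The sides overlapped almost throughout, with 6 of 18 Fos-low cells above the Fos-high median, and within cells 0 to 19 and 20 to 36 the difference was 1.27 and -0.31. Without the shallow cells, which include Fos-low cell 2 with its 8348 FPKM, the Junb difference was 1.22. Junb was not called in any of these comparisons, and the sides are called by their Fos level here.

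Of 30 immediate early transcription factors on the list, 22 were measured apart from Fos, and 5 (22.7%) were called higher: Atf3, Fosb, Jun, Egr1 and Fosl2. None was called lower. Over all measured genes 0.687% were called higher and 2.38% lower. The median difference over the 22 was 0.88, against -0.21 over all measured genes, and 18 lay above 0. Members that passed the detection limit could do so through the side where they were high, and the list was chosen with earlier results of these cells known, so the count is a description. Of the 5, 2 were still called at a Fos cutoff of 100 FPKM (Atf3 and Fosb) and 2 at 400 FPKM (the same genes). Within cells 0 to 19 alone 3 were called (Atf3, Egr1 and Jun), and within cells 20 to 36 alone 2 (Fosb and Fosl2).

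Atf3 encodes a stress-induced bZIP factor that restrains inflammatory genes in macrophages. It ranged from 0.36 to 1994 FPKM in Fos-high cells (median 40.6) and from 0 to 344 FPKM in Fos-low cells (median 1.39), a difference of 2.86. It was detected in 16 of 17 Fos-high cells and in 10 of 18 Fos-low cells, so the sides differed both in how many cells held it and in how much.

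Fosb encodes a close relative of Fos. It ranged from 0.13 to 239.5 FPKM in Fos-high cells (median 64.3) and from 0 to 1806 FPKM in Fos-low cells (median 0.257), a difference of 2.51. Most Fos-low cells were under 1 FPKM, yet the highest Fosb value of all was in Fos-low cell 2.

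Jun encodes the founding Jun protein. It ranged from 0 to 347 FPKM in Fos-high cells (median 45.7) and from 0 to 46.3 FPKM in Fos-low cells (median 1.25), a difference of 2.43. Only 1 Fos-low cell lay above the Fos-high median, while 3 Fos-high cells were under 1 FPKM.

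Egr1 encodes a zinc-finger factor downstream of serum response factor. It ranged from 0.0405 to 2019 FPKM in Fos-high cells (median 24.8) and from 0.0944 to 135 FPKM in Fos-low cells (median 0.916), a difference of 2.32. Both sides had cells near 0 and cells above 100 FPKM, and the difference was 4.02 within cells 0 to 19 but 1.06 within cells 20 to 36. It dropped under 2 in 1 of 35 comparisons that left out a single cell.

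Fosl2 encodes the Fos relative Fra-2. It ranged from 0.0427 to 2434 FPKM in Fos-high cells (median 6.07) and from 0 to 88.4 FPKM in Fos-low cells (median 0.481), a difference of 2.03. The 2434 FPKM was in shallow cell 26, the cell highest in Fos, and without it the difference was 1.55. Leaving out any 1 of 18 cells in turn took Fosl2 under 2.

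Among the immediate early factors that were not called, Ier3 had a difference of 1.97 and the shear- and quiescence-associated factor Klf2 one of 1.85. Klf6 was at 1.13 and Ier2 at 1.02. At the other end were Jund, the Jun relative that is transcribed in resting cells, at -1.25 and the clock gene Per1 at -1.34. Jund was detected in 15 of 18 Fos-low cells and in 10 of 17 Fos-high cells. Without the shallow cells the differences were 0.30 for Jund and -0.38 for Per1.

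**Figure D1:**
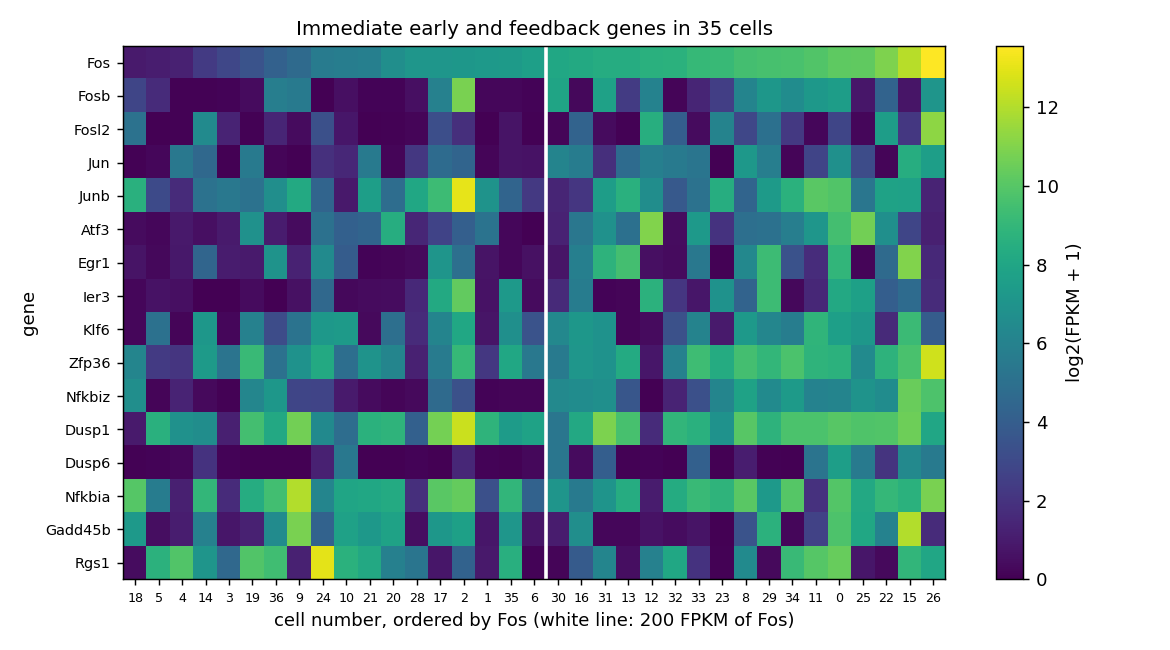
Colour gives log2(FPKM + 1) of 16 immediate early and feedback genes (rows) in the 35 cells (columns), ordered by Fos from lowest to highest, with a white line at 200 FPKM of Fos. Cells right of the line hold Atf3, Jun and Nfkbiz more often, while Junb, Rgs1 and Gadd45b show high and low cells on both sides.

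Of 31 feedback inhibitors, 26 were measured, 3 (11.5%) were called higher (Nfkbiz, Zfp36 and Dusp6) and none lower. Over all measured genes 0.687% were called higher and 2.38% lower. The median difference over the 26 was 0.69, and 17 lay above 0. At a Fos cutoff of 100 FPKM none of the 3 was called, with Nfkbiz at 1.98, Zfp36 at 1.36 and Dusp6 at 1.23, and at 400 FPKM all 3 were. Nfkbiz encodes IkB-zeta, an inducible nuclear IkB protein that steers NF-kB to secondary response genes. It had the largest difference of any measured gene that was higher in Fos-high cells.

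Nfkbiz ranged from 0 to 1416 FPKM in Fos-high cells (median 89.9) and from 0.0677 to 144 FPKM in Fos-low cells (median 0.652), a difference of 3.87. It was detected in 16 of 17 Fos-high cells and in 9 of 18 Fos-low cells, and 2 Fos-low cells lay above the Fos-high median. The difference was 3.54 within cells 0 to 19, 4.28 within cells 20 to 36 and 3.61 without the shallow cells.

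Dusp6 encodes the cytoplasmic phosphatase of ERK. It ranged from 0 to 195 FPKM in Fos-high cells (median 3.18) and from 0 to 41.7 FPKM in Fos-low cells (median 0.0933), a difference of 2.17. It was detected in 10 of 17 and 4 of 18 cells, its difference was 1.81 without the shallow cells, and it dropped under 2 in 3 of 35 comparisons that left out a single cell. Dusp5, the nuclear ERK phosphatase, was detected in 5 Fos-high cells and in 0 Fos-low cells, with a difference of 1.38. It thus counted as measured through the Fos-high side alone, so its direction is no separate support.

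Other feedback genes did not separate the sides. Nfkbia, which encodes IkB-alpha, had medians of 340.5 FPKM in Fos-high and 293 FPKM in Fos-low cells and a difference of 0.69. Rgs1, a brake on G-protein signalling, ranged from 0.0544 to 1343 FPKM in Fos-high cells and from 0.0908 to 8244 FPKM in Fos-low cells. Its difference was -1.16 over all cells, 1.87 within cells 0 to 19 and -4.87 within cells 20 to 36, so its direction differed between the putative library parts. Gadd45b, a stress sensor upstream of MAP kinases, behaved alike, at -1.06 over all cells and at 0.75 and -2.87 in the same parts.

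**Figure D2:**
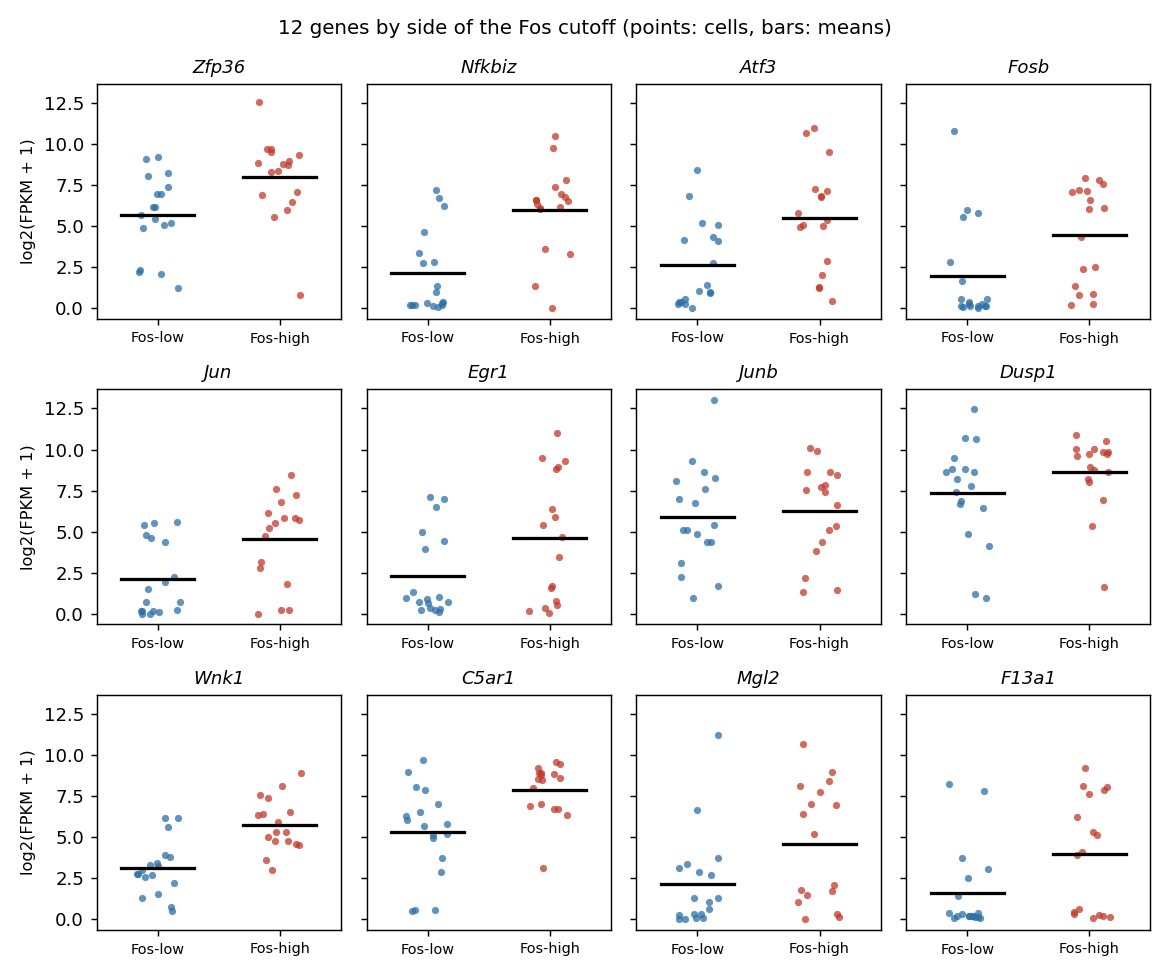
Each point is 1 cell and each bar the mean of a side, on a log2(FPKM + 1) axis, for 12 genes in Fos-low (blue, 18 cells) and Fos-high cells (red, 17 cells). The means differ by 3.87 for Nfkbiz and by 0.39 for Junb, and the points of the sides overlap for every gene.

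The 8 immediate early and feedback genes called higher did not come as a set in each cell. They were chosen because they were higher in Fos-high cells, so a higher number detected on that side follows from the choice. Of the 8, Fos-high cells had 4 to 8 detected (median 7) and Fos-low cells had 1 to 8 (median 3.5). Fos-low cell 2 had all 8 detected, and Fos-low cells 17 and 24 had 7. All 3 are shallow cells, in which 1 fragment gives a large value. Cell 2, at a Fos level of 141 FPKM, held Junb at 8348 FPKM, Dusp1 at 5608 FPKM and Fosb at 1806 FPKM.

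Within the Fos-high side, single cells combined these genes differently. Cell 26 held 12042 FPKM of Fos and 6101 FPKM of Zfp36 but 1.54 FPKM of Junb. Cell 12 held 395 FPKM of Fos and 1994 FPKM of Atf3, while Zfp36 was at 0.751 FPKM and Nfkbiz was listed at 0. The mean log2(FPKM + 1) over the measured immediate early factors ranged from 1.58 to 4.75 in Fos-high cells (median 3.37) and from 0.50 to 5.95 in Fos-low cells (median 2.15), so the lowest and the highest cell were both Fos-low.

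Pairs of genes were compared by Spearman's rho over the 35 cells, as a description. All values of 1 cell share its library and depth, and depth differed between cells. The part of depth in rho was not tested. Fos had a rho of 0.56 with Zfp36, 0.51 with Nfkbiz, 0.49 with Atf3, 0.43 with Dusp1, 0.24 with Egr1 and 0.20 with Junb. Inside the Fos-high side the rho of Fos was 0.65 with Zfp36 and 0.50 with Nfkbiz, but 0.07 with Atf3 and -0.02 with Fosb. Inside the Fos-low side it was 0.07 with Zfp36, -0.24 with Nfkbiz, 0.20 with Atf3 and 0.06 with Fosb. In these cells Zfp36 and Nfkbiz ranked with Fos on the Fos-high side and not on the Fos-low side. Atf3 ranked weakly with Fos at most, and Fosb hardly at all, on either side. Each side holds few cells and only part of the Fos range, because Fos chose the sides. Junb and Jun, which encode alternative partners of Fos, had a rho of -0.21 with each other.

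Other stress and inflammatory lists differed less. Of 18 heat shock genes, 11 were measured, none was called higher and 1 (9.09%) lower: Hspe1, the mitochondrial co-chaperonin, at -2.19. The share called lower over all measured genes was 2.38%. The median of the list was -0.21, the same as over all genes. Hspa1a and Hspa1b, the inducible Hsp70 genes, were detected in 3 and 0 of the 35 cells. Hspa8, the constitutive Hsc70 gene, was detected in every cell and differed by -0.34.

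Of 29 inflammatory chemokines and cytokines, 16 were measured and 1 (6.25%) was called higher, Cxcl1, which encodes a neutrophil attractant. None was called lower, and the median was 0.30. The share called higher over all measured genes was 0.687%. Cxcl1 ranged from 0.179 to 1337 FPKM in Fos-high cells (median 103) and from 0.136 to 1769.8 FPKM in Fos-low cells (median 0.402), a difference of 2.18. That difference was 4.35 within cells 20 to 36 and -0.16 within cells 0 to 19, so it came from 1 putative library part. Its relative Cxcl2 had medians of 198 and 146 FPKM and a difference of 0.98, and Il10, the anti-inflammatory cytokine gene, was at -1.44. Of 23 measured growth factor and stress signalling genes, the kinases and receptors upstream of Fos, none was called, and the median was -0.06.

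Outside the lists of the Fos response, the genes named are those of the largest differences that kept their sign, with a size of at least 1, in both putative library parts and without shallow cells. Wnk1, a kinase that regulates ion transport, was the most even of them. It ranged from 6.82 to 469 FPKM in Fos-high cells (median 39.2) and from 0.428 to 72.0 FPKM in Fos-low cells (median 6.38), a difference of 2.67. All 17 Fos-high cells were above the Fos-low median, and of all pairs of a Fos-high and a Fos-low cell, the Fos-high cell was the higher in 87.9%.

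C5ar1 encodes the receptor for the complement fragment C5a. It ranged from 7.68 to 774 FPKM in Fos-high cells (median 377) and from 0.431 to 820.5 FPKM in Fos-low cells (median 52.0), a difference of 2.58. Of 17 Fos-high cells, 16 were above the Fos-low median. The difference was 2.95 and 2.60 within the parts.

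Srsf2, a splicing factor, differed by 2.73, with medians of 194 FPKM in Fos-high and 15.3 FPKM in Fos-low cells. Rnf20, an E3 ligase for histone H2B, differed by 2.54 and was detected in 9 Fos-high and 2 Fos-low cells. Smarcc2, a subunit of BAF chromatin remodelling complexes, also differed by 2.54, detected in 9 and 1 cells. For Rnf20 and Smarcc2 the difference was therefore mostly one of cells with and without the gene, in a method that misses many transcripts per cell. Pros1, the gene of the TAM receptor ligand protein S, was at 2.85 and was detected in 10 Fos-high and 4 Fos-low cells. Fxyd2, a regulator of the sodium pump, was at 2.84, detected in 8 and 4 cells with medians of 0.517 and 0.0737 FPKM. Its lowest difference under the alternatives was 0.50, and its rho with Fos was 0.06. G530011O06Rik, detected in 10 and 3 cells, and Snhg9, detected in 9 and 4, were also in this group.

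Genes of the CD206 resident list, which marks the tissue-resident, mannose receptor-bearing macrophages of fat, were higher in part. Of 17 measured, 3 (17.6%) were called higher (Mgl2, F13a1 and Clec10a), none lower, and the median was 0.89. The share called higher over all measured genes was 0.687%. Mgl2, a galactose-type lectin, ranged from 0 to 1631 FPKM in Fos-high cells (median 35.3) and from 0 to 2359.6 FPKM in Fos-low cells (median 1.22), a difference of 2.42. Mgl2 values spread over the whole range on both sides, with the highest in a Fos-low cell.

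F13a1, which encodes coagulation factor XIII subunit A, had medians of 16.2 FPKM in Fos-high and 0.207 FPKM in Fos-low cells and a difference of 2.35. Clec10a, the paralogue of Mgl2, differed by 2.12, and reads can be shared between these near-identical lectin genes. The Clec10a difference was under 2 within cells 0 to 19 (1.81), within cells 20 to 36 (1.41) and without the shallow cells (1.37). That of Mgl2 was 1.51 within cells 0 to 19 and 1.94 at a Fos cutoff of 100 FPKM. At a Fos cutoff of 400 FPKM 1 of the 3 was still called, Mgl2 at 3.12, with F13a1 at 1.74 and Clec10a at 0.70. Folr2 was at 1.98 and Mrc1, the gene of CD206 itself, at 1.32. Mrc1 was detected in 16 of 17 Fos-high and 16 of 18 Fos-low cells, so both sides held it. Retnla, another gene of the list, was at -0.04. Timd4, Lyve1 and Cd163, also on the list, were detected in 0, 3 and 6 of the 35 cells.

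The opposite held for the CD9 lipid-associated list, which marks macrophages that take up and break down lipid. Of 17 measured, 3 (17.6%) were called lower (Lgals3, Trem2 and Atp6v0d2), none higher, and the median was -1.10. The share called lower over all measured genes was 2.38%. Lgals3, galectin-3, ranged from 0.21 to 1629 FPKM in Fos-high cells (median 47.9) and from 7.87 to 3139 FPKM in Fos-low cells (median 667), a difference of -2.75. The lipid-sensing receptor gene Trem2 was detected in 8 of 17 Fos-high and 14 of 18 Fos-low cells, with medians of 0.60 and 174 FPKM and a difference of -2.61. Cd9 itself was at -1.29, while the lipid chaperone gene Fabp4, on the same list, was at 1.26. With the Fos cutoff set at 100 FPKM the median of the list was 0.22 and 1 of the 3 calls was made, Atp6v0d2. Within cells 0 to 19 alone Lgals3 was at -1.76 and Trem2 at -1.74.

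**Figure D3:**
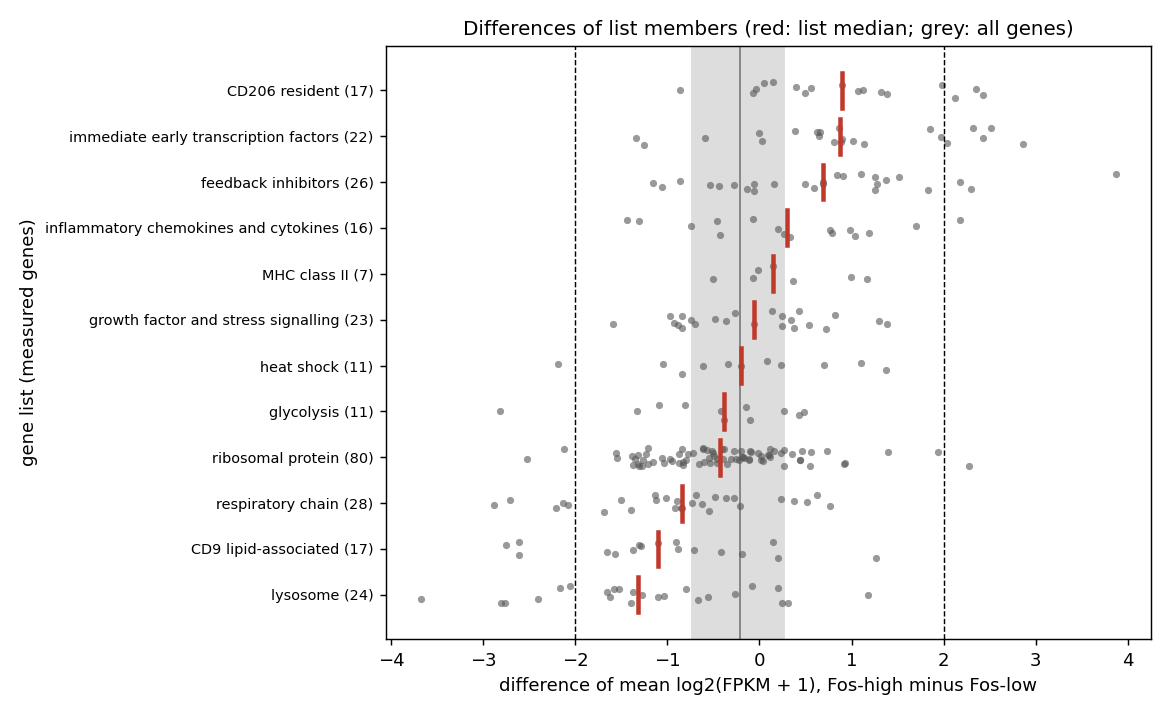
Each point is the difference (Fos-high minus Fos-low mean log2(FPKM + 1)) of 1 measured member of 12 gene lists, red bars are list medians, the grey band spans the lower to the upper quartile of all measured genes and dashed lines mark 2 and -2. The medians run from 0.89 for the CD206 resident list to -1.32 for the lysosome list.

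The lysosome list held 6 of the 104 genes called lower in Fos-high cells. Of its 24 measured genes, 6 (25%) were called lower (Ctsd, Asah1, Ctsz, Atp6v1a, Npc2 and Lamp1) and none higher. The median was -1.32. Over all measured genes 2.38% were called lower and the median was -0.21. At Fos cutoffs of 100 and 400 FPKM 1 and 2 of the 6 were still called, and with the number of genes detected as a covariate 2. Ctsd encodes the aspartic protease cathepsin D. It ranged from 0.21 to 8405 FPKM in Fos-high cells (median 14.7) and from 0.262 to 2221 FPKM in Fos-low cells (median 439.9), a difference of -3.67.

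Of 18 Fos-low cells, 16 were above the Fos-high median of Ctsd, while the highest Ctsd value of all was in shallow Fos-high cell 26. Asah1, acid ceramidase, was at -2.81 with medians of 2.20 and 87.9 FPKM. Ctsz, cathepsin Z, was at -2.76 with medians of 41.7 and 294 FPKM. Atp6v1a, the catalytic subunit of the proton pump that acidifies lysosomes, was at -2.41, and all 18 Fos-low cells were above the Fos-high median. The membrane subunit Atp6v0e, not on the list, was at -2.86.

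Lat2, an adaptor of immunoreceptor signalling, had the most negative difference of any measured gene. It ranged from 0 to 79.6 FPKM in Fos-high cells (median 0.259) and from 0.119 to 11707 FPKM in Fos-low cells (median 47.4), a difference of -3.94. Lat2 was detected in 4 of 17 Fos-high and 15 of 18 Fos-low cells, and 1 Fos-high cell was above the Fos-low median.

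Anxa2, a calcium-dependent membrane-binding protein, was detected in every cell. It ranged from 1.14 to 1798 FPKM in Fos-high cells (median 89.9) and from 15.9 to 53636 FPKM in Fos-low cells (median 753), a difference of -3.39. S100a11, a calcium-binding protein, was at -3.31, with medians of 2.22 and 256 FPKM. For Anxa2 the difference was -2.09 within cells 0 to 19 and -5.62 within cells 20 to 36. Its 53636 FPKM was in shallow cell 24, and the next highest Fos-low value was 2210 FPKM in cell 28. Without the shallow cells the Anxa2 difference was -3.26.

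Sqstm1, the autophagy receptor p62, was at -3.30, detected in 7 of 17 Fos-high and 16 of 18 Fos-low cells, and at -0.65 with the Fos cutoff at 100 FPKM. Chmp1a, an ESCRT component, was at -2.88. Blvra, biliverdin reductase, was at -2.80, and Esd, an esterase, was at -2.87. H2afz, the histone variant H2A.Z, was at -2.88 with medians of 5.36 and 192 FPKM. Pld3, an endolysosomal nuclease, was at -2.78.

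**Figure D4:**
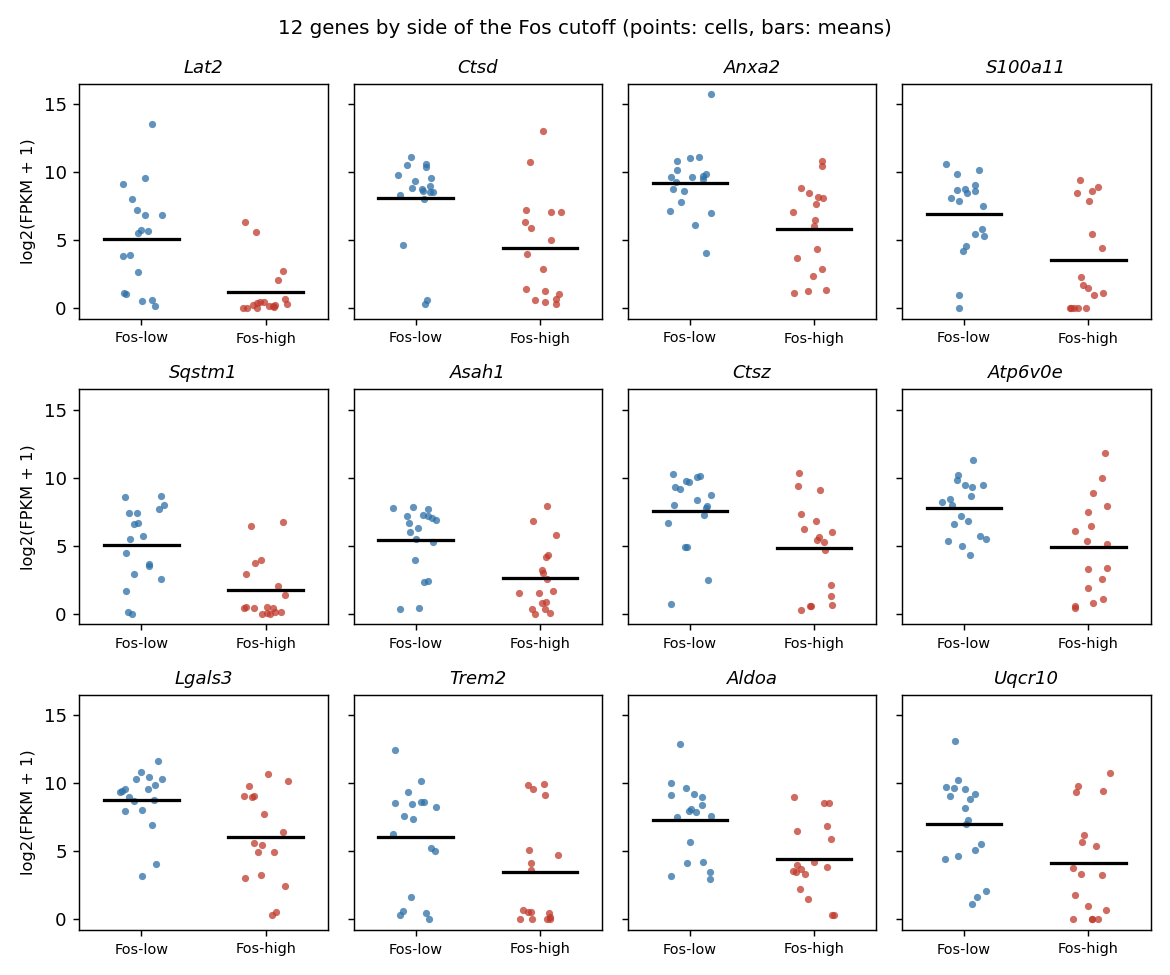
Each point is 1 cell and each bar the mean of a side, on a log2(FPKM + 1) axis, for 12 genes lower in Fos-high cells (red, 17 cells) than in Fos-low cells (blue, 18 cells). The means differ by -3.94 for Lat2 and -3.67 for Ctsd, and for every gene some Fos-high cells reach the Fos-low values.

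Lower differences were the more common among all measured genes too, with 2670 below 0 and 1698 above, so list counts are read against the 2.38% called lower overall. Of 28 measured nuclear-encoded respiratory chain genes, 5 (17.9%) were called lower (Uqcr10, Atp5e, Cox5b, Ndufb8 and Atp5j), none higher, and the median was -0.85. At a Fos cutoff of 100 FPKM none of the 5 was called, and at 400 FPKM 3 were. Uqcr10, a small subunit of complex III, was detected in 11 of 17 Fos-high and 18 of 18 Fos-low cells, with medians of 8.86 and 220.4 FPKM. Its difference of -2.89 was -1.15 and -0.31 at Fos cutoffs of 100 and 400 FPKM. The list did not move as 1 block: Cox4i1 and Uqcrh were at 0.62 and 0.76. Minos1, a subunit of the complex that shapes mitochondrial cristae, was at -3.01 and was detected in 4 Fos-high and 16 Fos-low cells.

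Of 11 measured glycolysis genes, 1 (9.09%) was called lower, the aldolase gene Aldoa, and the median was -0.39. Aldoa had medians of 13.4 and 239 FPKM and a difference of -2.81. Of 17 measured antioxidant and metallothionein genes, 2 (11.8%) were called lower, the peroxiredoxin genes Prdx2 and Prdx6. Prdx2 was at -3.20, and at -0.58 with the Fos cutoff at 100 FPKM. Its difference was -5.28 within cells 0 to 19 and -0.91 within cells 20 to 36. Prdx6 was detected in 0 of 17 Fos-high and 11 of 18 Fos-low cells, so it counted as measured through the Fos-low side alone. The metallothionein gene Mt1 was at 1.95. Of 80 measured ribosomal protein genes, 1 was called higher (Rps21, at 2.27) and 2 lower (Rpl12, at -2.53, and Rpl3, at -2.12), and the median was -0.43. These shares, 1.25% and 2.5%, lie near those of all measured genes, 0.687% and 2.38%. At a Fos cutoff of 100 FPKM Rps21 was at 0.15, Rpl12 at -1.16 and Rpl3 at -1.21, so none was called. Without the shallow cells Rps21 was at 0.85.

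Fewer genes were detected in Fos-high cells (medians of 1691 against 2074). With the number of genes detected as a covariate, 48 of the 104 lower calls and 26 of the 30 higher calls were still made. Within cells 0 to 19 alone 159 genes were called higher and 151 lower, and within cells 20 to 36 alone 80 were higher and 544 lower. Without the shallow cells the counts were 48 and 138.

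Macrophage genes were present on both sides. All 35 cells held Lyz2, C1qb, Tyrobp and Fcer1g at 1 FPKM or more, and also C1qc, Cd14, Ctss and Laptm5. Other members of the list were detected in fewer cells: Mertk in 5, Fcgr1 in 12, Itgam in 19, Spi1 in 21 and Aif1 in 24. None of the 18 macrophage genes on the list was called. Of the 18, 12 lay below 0 and 6 above, with a median of -0.32, against -0.21 over all measured genes. Lyz2, lysozyme, had medians of 2838 FPKM in Fos-high and 5784 FPKM in Fos-low cells, and C1qb, a complement C1q chain, had medians of 3634 and 2878 FPKM. Their differences were -1.03 and 0.79. Of 7 measured MHC class II genes none was called, and H2-Ab1, detected in all 35 cells, was at -0.01. Of 4 measured interferon response genes none was called.

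Few genes of other cell types were detected in any compared cell, but some of them at high values. No cell had 3 or more genes detected of the lists for fibroblasts, endothelium, T, B and NK cells, neutrophils, mast cells and eosinophils, dendritic cells, adipocytes, mesothelium or erythroid cells. The highest sum of dendritic cell genes was 151.5 FPKM in Fos-high and 842.7 FPKM in Fos-low cells. For T cell genes it was 106.5 and 225.4 FPKM, for adipocyte genes 0.324 and 213.7 FPKM and for neutrophil genes 0 and 55.4 FPKM. The median sums of these lists were under 1 FPKM on both sides. Of 8 fibroblast genes, 1 was measured: Gsn, gelsolin, which macrophages also express, at -2.53. The summed fibroblast genes ranged from 0 to 2164 FPKM in Fos-high cells (median 0.653) and from 0.113 to 1601 FPKM in Fos-low cells (median 6.94). In Fos-high cell 26, the highest, 2161 of 2164 FPKM was Gsn. Dpt, dermatopontin, was at 604 FPKM in 1 Fos-low cell, shallow cell 17, whose sum was 746 FPKM, and was under 1 FPKM in the other compared cells. Col1a2 reached 9.62 FPKM and Dcn 5.03 FPKM, while Col1a1, Col3a1, Lum and Pdgfra stayed under 1 FPKM in every compared cell. Their part in the differences was not tested.

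The cells were also ranked by Fos. The ranking uses the same Fos values that chose the sides, so it restates the comparison without the cutoff and adds no independent support. The 5 measured genes with the highest Spearman's rho with Fos over the 35 cells were Wnk1 (0.70), Fndc3b (0.60), Zfp36 (0.56), Rnf20 (0.56) and the endocytic adaptor gene Dab2 (0.55). The 5 with the lowest rho were Gpr137b-ps (-0.59), the proteasome subunit gene Psma7 (-0.57), Gm13139 (-0.55), Lat2 (-0.55) and the mitochondrial import gene Tomm34 (-0.54). The number 5 was chosen after the values were seen. Fos had a rho of -0.24 with the number of genes detected and 0.02 with the FPKM sum.

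**Figure D5:**
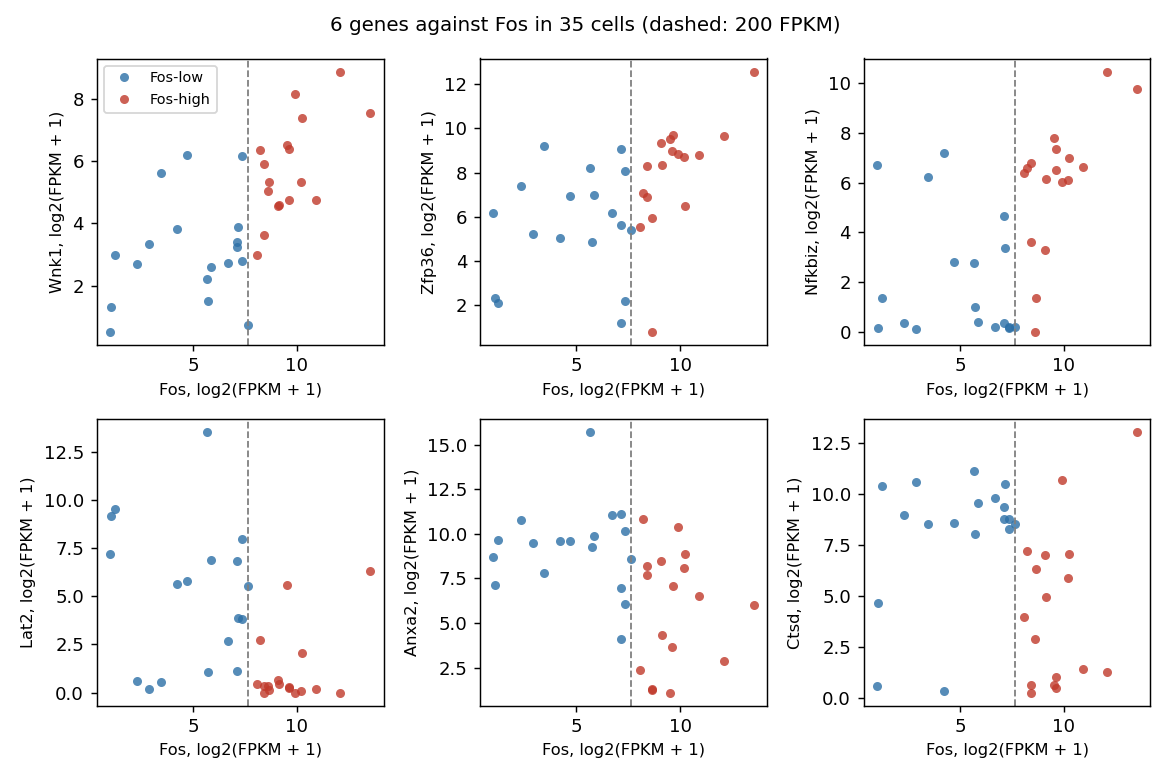
Each point is 1 of the 35 cells, with log2(FPKM + 1) of Fos on the horizontal axis and of 6 genes on the vertical axes, and the dashed line marks 200 FPKM of Fos. Wnk1 climbs with Fos across the line (rho 0.70), while Lat2 is near 0 in most Fos-high cells and spread out in Fos-low cells (rho -0.55).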

How the data were processed

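The authors deposited 1 table of FPKM, 23947 genes by 37 cells. STAR was used for alignment, mm9 as the build and Cuffnorm for the FPKM, per the submitters' processing notes. No version, setting or annotation is given in the sources used here. FPKM give no read counts, so depth is unknown and no interval is printed. An exact 0 can be a failed estimate, and 0 was listed for Gapdh in 2 cells, for Rpl3 in 3 and for Hprt in 6.

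Values were compared as log2(FPKM + 1), with a pseudocount of 1, in Python 3.11.15 with numpy 2.4.6, pandas 2.3.3 and scipy 1.17.1. The computation was checked on simulated data with normally distributed values. Those data did not copy the many zeros of these cells, so the check does not bear on calls of sparsely detected genes. The value of 1 fragment came from the most frequent ratio of low values in each of 666 pairs of cells, of which 605 were kept. The 26 lists held 464 genes, of which 458 matched a symbol in the table.

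Named genes were all immediate early and feedback members past a difference of 2, and the 15 largest and 15 smallest differences among called genes detected in at least 10 cells, with the same sign and a size of at least 1 within cells 0 to 19, within cells 20 to 36 and without shallow cells. Members of other lists, and genes named as uncalled members, discordant cells or by rho were chosen after their values were seen. The sides, members and lists were chosen with earlier results of these data known. Alternatives changed the pseudocount, filter, scaling, Fos cutoff, cells and call size.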

Additional observations from a re-analysis of the deposited data

How the results depend on the processing

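The limits are those of 35 cells from an unknown number of animals, read as FPKM without counts. The 30 higher and 104 lower calls became 101 and 363 with a pseudocount of 0.1, 91 and 272 as differences of medians, 75 and 172 between the 12 highest and 12 lowest cells by Fos, 247 and 692 at a call difference of 1, and 2 and 8 at a call difference of 3. They were 74 and 61 with the number of genes detected as covariate, 80 and 544 in cells 20 to 36 alone, 159 and 151 in cells 0 to 19 alone, 43 and 57 at a Fos cutoff of 100 FPKM, 40 and 108 at 400 FPKM, and 48 and 138 without shallow cells. In each case the cause was not tested, apart from the looser or stricter call sizes. Leaving out each cell in turn, an alternative added after seeing the data, gave 28 to 37 higher and 93 to 120 lower calls. The same runs gave medians of 0.75 to 1.04 for the immediate early list and 0.54 to 0.89 for the feedback list. Across the 14 other alternatives, such as a changed pseudocount, scaling or Fos cutoff, the spread was wider. There the median ran from 0.23 to 1.11 for the feedback list and from 0.78 to 1.31 for the immediate early list. Both medians stayed above 0. Of 476 values of 34 named genes under the alternatives, 415 were still past 2 and 0 changed sign. Most of these genes were named because they kept their sign, with a size of at least 1, in cells 0 to 19, in cells 20 to 36 and without shallow cells. For those genes the sign in these alternatives was therefore fixed by the choice. Changing the filter on low values left the difference of each gene as it was. Both counts thus describe chosen genes and are no separate support. Only 4 genes were past 2 in all 14 alternatives, Lat2, Anxa2, S100a11 and G530011O06Rik, while Fosl2 was in 9 and Uqcr10 in 10. The medians of the lysosome, respiratory chain and ribosomal protein lists stayed under 0 and that of the CD206 list above 0 in every alternative run, while those of the MHC class II, heat shock, CD9 and inflammatory lists changed sign in at least 1. No paired analysis was possible because all cells form 1 group and the cell numbers pair nothing.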

Other observations

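The cells kept out of the comparison fell on both sides of the cutoff. Cell 7 held 20.96 FPKM of Fos with 3204 genes detected, and cell 27 held 2473 FPKM of Fos with 3054 genes detected, both above the highest number of genes in any compared cell, 2769. With these cells put back, 27 genes were called higher and 91 lower in Fos-high cells.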
